A study of Mus musculus with 12 samples.

Results

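The vacuolar H+-ATPase, or V-ATPase, is the rotary pump that acidifies lysosomes, endosomes and phagosomes, and in osteoclasts the bone surface. A cytosolic V1 sector burns ATP and turns a rotor. The membrane sector V0 carries the protons and consists of a ring of c and c'' subunits, a d subunit that couples the ring to the rotor, an a subunit that forms the proton path, and a small e subunit. Several of these subunits are encoded by alternative genes: Atp6v0d1 and Atp6v0d2 for d, Atp6v0a1, Atp6v0a2 and Tcirg1 (a3) for a, and Atp6v0e and Atp6v0e2 for e. Atp6v0d1 is made in most cells, whereas Atp6v0d2 is known from osteoclasts, where mouse cells need it for cell fusion, and from some macrophages and epithelia.

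The V0 genes examined were the 9 that encode these subunits in the list used here. They were picked by gene symbol after Atp6v0d2 had been seen to differ between skin melanophages and skin macrophages on the same arrays. Of the 9, 8 were read by a probe set assigned to a single gene, among 19938 genes tested. Atp6v0c, which encodes the c subunit, matched no such probe set and was not analysed here. Where a gene had several probe sets, the one with the highest mean over the 12 arrays was used. This choice bore on Atp6v0a2 alone among the V0 genes.

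The study compared melanophages, which are skin macrophages loaded with melanin taken up from pigment cells, with other skin macrophages. Cells were sorted from the skin of untreated wild-type C57BL/6 mice kept free of specific pathogens, and all were CD11b+, CD24-, CD64+, CCR2- and Ly6C-. The 4 groups of 3 arrays were MHC-II-positive melanophages, MHC-II-negative melanophages, MHC-II-positive macrophages and MHC-II-negative macrophages. Melanophages were gated on high side scatter, a measure of granularity. For macrophages the labels disagree on side scatter, giving it as high in the sample titles and low in the phenotype field. Whether the 3 arrays of a group stand for separate mice is not given in the labels, so every p-value reflects array-to-array spread, which may be technical. In sorted populations, fewer cells of a type and less RNA per cell cannot be told apart.

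All values are log2 expression levels normalised by the authors with robust multi-array averaging (RMA), where a difference of 1 is a 2-fold change. The median of all probe sets lay between 2.97 and 3.08 on every array, which gives the level of dim probe sets. Replicate 1 of the MHC-II-negative macrophages and replicate 3 of the MHC-II-positive macrophages lay farthest from their group mates. The standard deviation of the difference from the mean of the mates, over the 19938 genes, was 0.406 and 0.356. Results that turn on these arrays are also given without them. Of 9 measured macrophage markers 0 lay within 1 log2 unit of the array median on all arrays, and the summed linear level of the list overlapped between the 4 groups, which spanned 9611 to 11419. Single macrophage markers differed between melanophages and macrophages: Itgam (CD11b) by -1.02 ± 0.18, Fcgr1 (CD64) by -0.45 ± 0.16 and Cd68 by 0.28 ± 0.05 (log2 difference ± SE, averaged over MHC-II class). Of 6 melanocyte markers, 5 (Tyr, Tyrp1, Dct, Pmel and Sox10) stayed within 1 unit of the median on all arrays, as did 6 of 6 keratinocyte markers. The other, Mlana, averaged 3.41 ± 0.55 in MHC-II-positive melanophages and 2.90 ± 0.05 in MHC-II-positive macrophages (SD, n = 3 each). In the MHC-II-negative class it averaged 3.03 ± 0.07 and 2.97 ± 0.04. The melanocyte sums were 42 to 49 against 39 to 41 in the MHC-II-positive class, and 44 to 45 against 40 to 44 in the MHC-II-negative class. The 5 genes of the MHC-II gate summed to 7837 to 9875 in MHC-II-positive and 468 to 917 in MHC-II-negative melanophages, and to 10016 to 11433 in MHC-II-positive and 1352 to 1849 in MHC-II-negative macrophages, as labelled.

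Of the regions upstream of these genes, the one before Atp6v0b, which encodes the c'' subunit, is shown because it holds repeated copies of the sequence that MITF, TFEB and TFE3 are known to bind in lysosomal genes. The sequence is from RefSeq (GRCm38.p6, minus strand, chr4:117887330-117887579), runs 5′ to 3′ over the 250 bases before the start used in the RefSeq promoter table, and has TCACGTG in capitals.
Atp6v0b: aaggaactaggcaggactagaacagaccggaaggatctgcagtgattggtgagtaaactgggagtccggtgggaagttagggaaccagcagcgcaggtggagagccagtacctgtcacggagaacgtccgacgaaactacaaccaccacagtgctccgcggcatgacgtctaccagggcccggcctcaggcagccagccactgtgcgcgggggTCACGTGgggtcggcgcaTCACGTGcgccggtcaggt
The 2 copies begin 37 and 19 bases before that start, which lies inside the RefSeq gene record, so that the last 4 bases of the window belong to the annotated gene. Both strands were searched for CACGTG, its extension TCACGTG, the related TCATGTG, and TGAGTCA, the site known for AP-1 factors. The windows came from 7 of the 9 V0 genes, with 11 windows in all; Atp6v0d2 and Atp6v0a2 were not among them. TCACGTG was found in 1 of the 11 windows, and in 3.13% of 32851 windows of the same length. TCATGTG was found in 1 window, against 3.25% of all windows. It lay 17 bases before 1 of the starts of Atp6v0c, inside the RefSeq record of that gene. TGAGTCA was found in 0 of the 11, against 4.46%. These are matches of letters and show no binding.

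The d subunits gave the widest contrast between alternative genes. Atp6v0d2 read 9.83, 9.65 and 9.26 in MHC-II-positive melanophages and 10.20, 10.33 and 10.19 in MHC-II-negative melanophages. In MHC-II-positive macrophages it read 7.87, 6.99 and 8.80, and in MHC-II-negative macrophages 7.77, 6.31 and 7.62. All 6 melanophage arrays, from 9.26 to 10.33, lay above all 6 macrophage arrays, from 6.31 to 8.80. Because this difference led to the choice of the genes, it is described here without a p-value. Averaged over MHC-II class it was 2.35 ± 0.32 (SE), or 5.10-fold, the highest of the 19938 genes in the direction of higher in melanophages, with Ctsk next at 2.32.

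Within the MHC-II-positive class Atp6v0d2 averaged 9.58 ± 0.29 in melanophages and 7.89 ± 0.90 in macrophages (SD, n = 3 each), a 3.23-fold difference (1.69 ± 0.45 SE). Within the MHC-II-negative class the means were 10.24 ± 0.08 in melanophages and 7.23 ± 0.80 in macrophages, an 8.05-fold difference (3.01 ± 0.45 SE). Counted from the most positive difference, the gene ranked 3 of 19938 in the MHC-II-positive class and 2 in the MHC-II-negative class. Without replicate 1 of the MHC-II-negative macrophages and replicate 3 of the MHC-II-positive macrophages, the averaged difference was 2.71 ± 0.27 (SE). The macrophage arrays spread more widely than the melanophage arrays, and the lowest in each macrophage group was replicate 2.

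Atp6v0d1, the widely expressed d gene, read 6.73, 6.78 and 7.16 in MHC-II-positive melanophages and 7.09, 6.57 and 6.37 in MHC-II-negative melanophages. Its macrophage values were 7.13, 6.93 and 7.31 in the MHC-II-positive group and 5.71, 6.59 and 6.76 in the MHC-II-negative group. The cell kinds overlapped, and the averaged difference was 0.04 ± 0.19 (SE). The change in the difference between the 2 d genes, taken within each array and then compared as melanophages minus macrophages, was 1.93 in the MHC-II-positive class and 2.69 in the MHC-II-negative class. Against the mean of the 7 other V0 genes the change in Atp6v0d2 was 1.68 in the MHC-II-positive class and 2.90 in the MHC-II-negative class. The mean of those 7 genes was 6.58 in MHC-II-positive melanophages, 6.58 in MHC-II-negative melanophages, 6.56 in MHC-II-positive macrophages and 6.48 in MHC-II-negative macrophages.

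**Figure D1:**
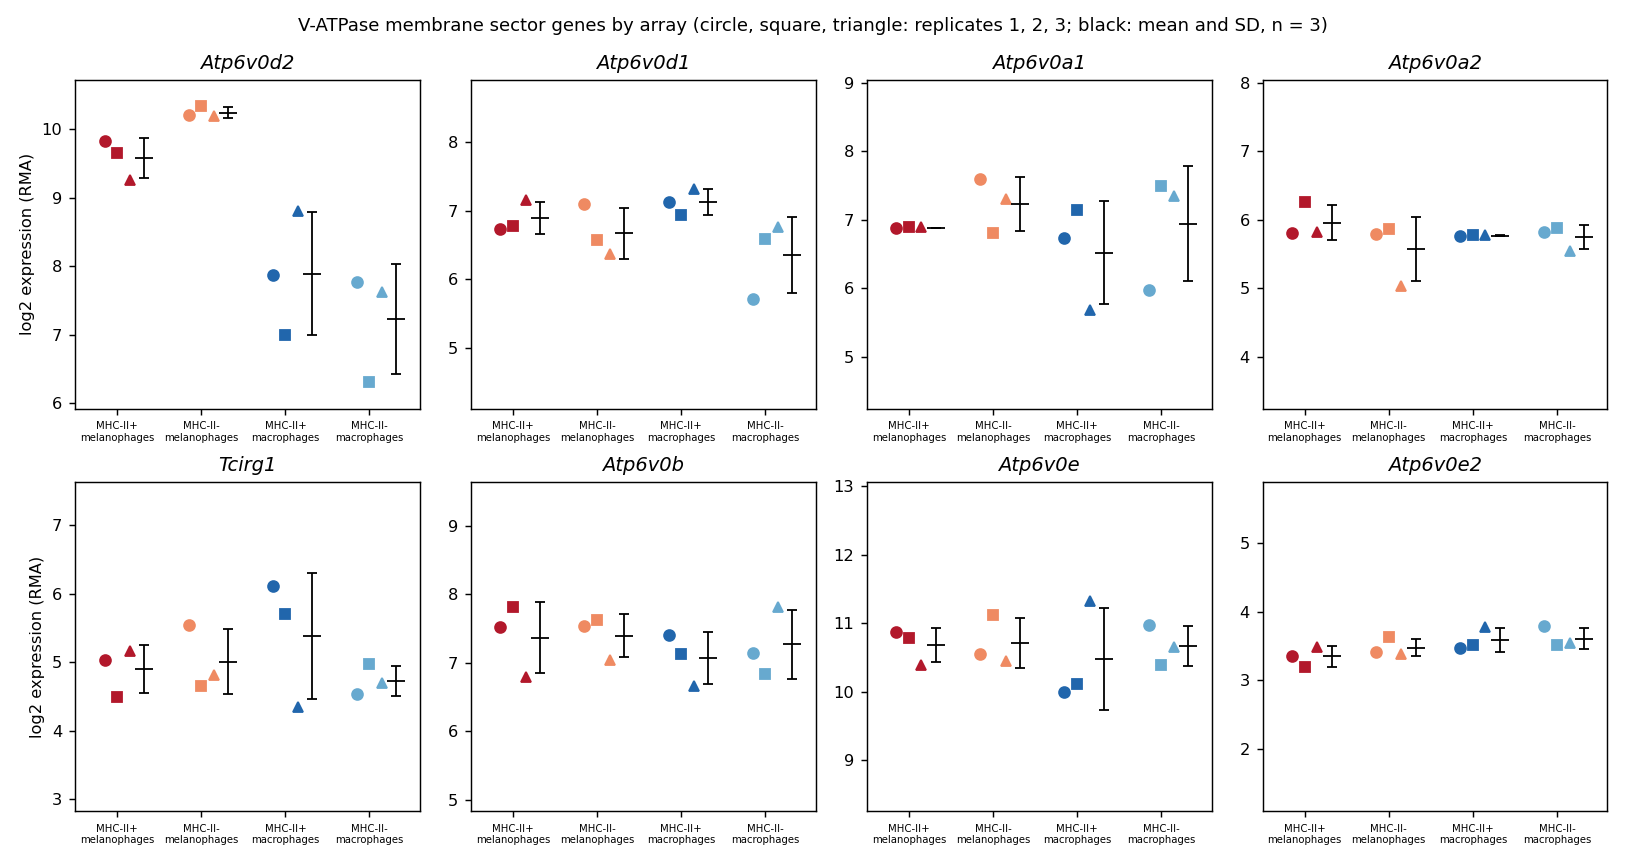
Log2 expression (RMA, y axis) of the 8 measured V0 genes on each of the 12 arrays, by group (x axis), with the mean and SD of 3 arrays in black. Each panel spans the same number of log2 units. Atp6v0d2 lies at 9.26 to 10.33 in melanophages and at 6.31 to 8.80 in macrophages, while the cell kinds overlap in the other 7 panels.

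The a subunits form the channels through which protons pass, and their isoform helps to place the pump in the cell. Atp6v0a1 read 6.88, 6.89 and 6.89 in MHC-II-positive melanophages, 7.60, 6.81 and 7.30 in MHC-II-negative melanophages, 6.74, 7.14 and 5.69 in MHC-II-positive macrophages and 5.98, 7.50 and 7.35 in MHC-II-negative macrophages. Its averaged difference between melanophages and macrophages was 0.33 ± 0.30 (SE) and the cell kinds overlapped. The 2 lowest arrays, at 5.69 and 5.98, were the 2 that lay farthest from their group mates. Without them the difference was -0.12 ± 0.15 (SE), so that its sign rested on these arrays.

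Atp6v0a2, the isoform known from the Golgi apparatus and endosomes, read 5.81, 6.26 and 5.82 in MHC-II-positive melanophages, 5.80, 5.87 and 5.03 in MHC-II-negative melanophages, 5.76, 5.78 and 5.78 in MHC-II-positive macrophages and 5.82, 5.88 and 5.54 in MHC-II-negative macrophages. The averaged difference was 0.00 ± 0.15 (SE). Within the MHC-II-positive class the melanophage arrays lay above the macrophage arrays, as they did for 7.51% of all genes.

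Tcirg1, the a3 isoform of osteoclasts and of secretory lysosomes, read 5.04, 4.50 and 5.16 in MHC-II-positive melanophages and 5.55, 4.65 and 4.82 in MHC-II-negative melanophages. It read 6.11, 5.70 and 4.35 in MHC-II-positive macrophages and 4.53, 4.97 and 4.69 in MHC-II-negative macrophages. The cell kinds overlapped, with an averaged difference of -0.11 ± 0.28 (SE). The a and d isoforms best known from osteoclasts differed in these samples: Atp6v0d2 did not overlap between the cell kinds, and Tcirg1 did. Without the 2 far arrays Tcirg1 stood at -0.42 ± 0.21 (SE).

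Atp6v0b, whose upstream sequence is printed above, read 7.52, 7.81 and 6.79 in MHC-II-positive melanophages, 7.54, 7.62 and 7.05 in MHC-II-negative melanophages, 7.41, 7.13 and 6.66 in MHC-II-positive macrophages and 7.14, 6.84 and 7.82 in MHC-II-negative macrophages. The cell kinds overlapped, with an averaged difference of 0.22 ± 0.22 (SE).

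Atp6v0e, the common e subunit, read 10.87, 10.78 and 10.39 in MHC-II-positive melanophages, 10.55, 11.12 and 10.45 in MHC-II-negative melanophages, 9.99, 10.11 and 11.33 in MHC-II-positive macrophages and 10.98, 10.39 and 10.65 in MHC-II-negative macrophages. The averaged difference was 0.12 ± 0.23 (SE), and 0.41 ± 0.15 (SE) without the 2 far arrays, which held the highest Atp6v0e value of their groups. Atp6v0e2, an isoform known from brain, lay between 3.20 and 3.63 in melanophages and between 3.48 and 3.79 in macrophages, close to the level of dim probe sets. Its averaged difference was -0.19 ± 0.08 (SE), and at this signal the probe set may not measure the transcript.

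The fit over all genes (limma, adjusted p under 0.05 by Benjamini-Hochberg over the 19938 genes) counted 1 of the 8 V0 genes, Atp6v0d2, past its threshold as higher in melanophages averaged over MHC-II class, an outcome that the choice of genes fixed. Of all genes 0.0552% passed in that direction and 0.12% in either. The count was 0 in 9 of the 12 fits that leave out 1 array (any melanophage array, MHC-II-positive macrophage replicate 1, or MHC-II-negative macrophage replicate 2 or 3), and 0 when every probe set was tested. Non-overlapping arrays with melanophages higher were found for Atp6v0d2 among the 8, and for 0.271% of all genes. Within the MHC-II-positive class 0 of 8 passed, against 0.015% of all genes, and within the MHC-II-negative class 0 of 8, against 0.00502%. Nothing is read from these counts, since this comparison led to the choice of genes.

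MHC-II class was a comparison that the choice of genes did not use. Of the 8 V0 genes 0 passed the test of MHC-II class when averaged over melanophages and macrophages, where 0.762% of all genes passed (limma). At an unadjusted p under 0.05, 1 of the 8 would pass, against 9.23% of all genes. Within melanophages 0 of 8 passed, against 0.211% of all genes, and 0 of 8 had an unadjusted p under 0.05. Within macrophages 0 of 8 passed, against 0.341%, with 1 of 8 at an unadjusted p under 0.05.

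Atp6v0d2 averaged 9.58 ± 0.29 in MHC-II-positive and 10.24 ± 0.08 in MHC-II-negative melanophages (SD, n = 3 each). The difference was -0.66 ± 0.45 (SE), with a 95% interval of -1.66 to 0.33 and an adjusted p of 0.955 (limma). The 3 MHC-II-positive arrays all lay below the 3 MHC-II-negative arrays, a pattern that 7.13% of all genes shared. In macrophages the sign was opposite: the means were 7.89 ± 0.90 in MHC-II-positive and 7.23 ± 0.80 in MHC-II-negative cells, a difference of 0.65 ± 0.45 (SE; 95% interval -0.34 to 1.65, limma adjusted p = 0.777), and the arrays overlapped.

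Averaged over cell kind, the MHC-II difference of Atp6v0d2 was -0.00 ± 0.32 (SE), with a 95% interval of -0.71 to 0.70 (limma adjusted p = 0.998). The interaction, which asks whether the MHC-II difference was the same in melanophages as in macrophages, was -1.32 ± 0.63 (SE), with a 95% interval of -2.72 to 0.09 (limma unadjusted p = 0.0635, adjusted p = 1). The interaction equals the difference between the 2 within-class comparisons of the cell kinds. Those led to the choice of genes, so for Atp6v0d2 this p is not free of that choice. The interval reaches from a wide opposite response to just above 0. These arrays therefore do not settle whether MHC-II class bears on Atp6v0d2 differently in the 2 cell kinds. Of all genes 0 passed the interaction test (0% of those tested), as did 0 of the 8 V0 genes; at an unadjusted p under 0.05, 820 genes and 0 V0 genes would pass. In order of its mean, Atp6v0d2 was highest in MHC-II-negative melanophages, then in MHC-II-positive melanophages, MHC-II-positive macrophages and MHC-II-negative macrophages, and the 2 macrophage groups overlapped.

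Atp6v0d1 had the smallest p of the V0 genes in the averaged MHC-II comparison and within macrophages, and did not pass in either. Averaged over cell kind its means were 7.01 in MHC-II-positive and 6.51 in MHC-II-negative cells, a difference of 0.49 ± 0.19 (SE; 95% interval 0.07 to 0.91, limma unadjusted p = 0.026, adjusted p = 0.435). Within macrophages the difference was 0.77 ± 0.27 (SE; 95% interval 0.17 to 1.37, limma adjusted p = 0.465). There the 3 MHC-II-positive arrays, from 6.93 to 7.31, lay above the 3 MHC-II-negative arrays, from 5.71 to 6.76, as for 4.96% of all genes. The lowest of these, 5.71, was on 1 of the 2 far arrays, and without both the difference in macrophages was 0.36 ± 0.23 (SE, limma adjusted p = 0.776).

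For the other 6 genes the averaged MHC-II difference lay between -0.39 for Atp6v0a1 and 0.27 for Tcirg1, with every 95% interval holding 0. The widest interval was that of Atp6v0a1, from -1.06 to 0.29, and the narrowest that of Atp6v0e2, from -0.27 to 0.11. Within melanophages Atp6v0a2 stood at 0.40 ± 0.21 (SE; 95% interval -0.07 to 0.86, limma adjusted p = 0.913). Within macrophages Tcirg1 stood at 0.65 ± 0.40 (SE; 95% interval -0.24 to 1.54, limma adjusted p = 0.746), and at 1.07 ± 0.32 (SE, limma adjusted p = 0.314) without the 2 far arrays.

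**Figure D2:**
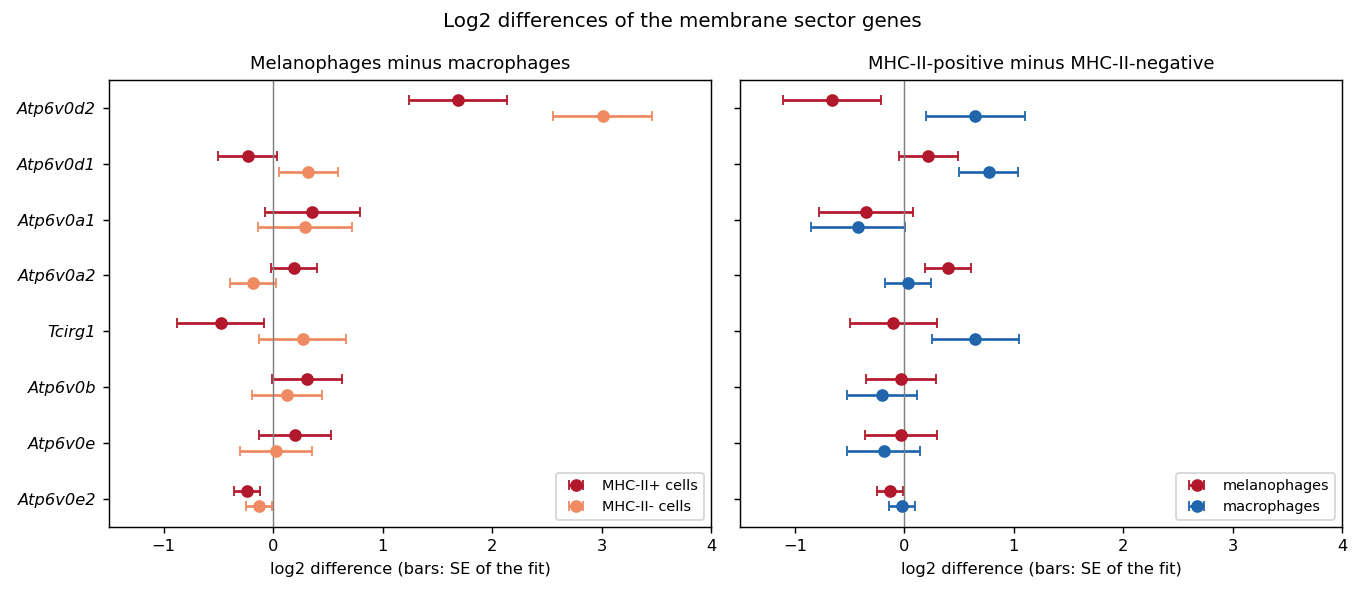
Log2 differences (x axis) of the 8 V0 genes, with the SE of the limma fit as bars. On the left, melanophages minus macrophages within each MHC-II class, where Atp6v0d2 stands at 1.69 and 3.01. On the right, MHC-II-positive minus MHC-II-negative within each cell kind, where no gene passed the test and Atp6v0d2 stands at -0.66 in melanophages and 0.65 in macrophages.

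The V0 genes showed no common direction from array to array, although single pairs were closely related. Over the 12 arrays, 13 of the 28 pairs of V0 genes had a Pearson correlation above 0, with a median of -0.03. The extremes were -0.83 for Tcirg1 and Atp6v0e and 0.43 for Atp6v0e and Atp6v0e2. The 2 far arrays took part in this: in their groups they held the lowest Atp6v0a1 and Tcirg1 values and the highest Atp6v0e, Atp6v0e2 and Atp6v0d2 values. Without them the pair Tcirg1 and Atp6v0e stood at -0.78 and the pair Atp6v0e and Atp6v0e2 at -0.07. After each group mean was removed, 14 of the 28 pairs lay above 0, with a median of -0.01, and the extremes were -0.86 for Tcirg1 and Atp6v0e and 0.76 for Atp6v0d2 and Atp6v0e. Among the other pairs within groups, Atp6v0a1 and Tcirg1 stood at 0.70, Atp6v0e and Atp6v0e2 at 0.69, and Atp6v0a1 and Atp6v0e2 at -0.82. Over the 12 arrays the correlation of Atp6v0d2 with the other V0 genes ran from -0.33 for Atp6v0e2 to 0.39 for Atp6v0e, and with Atp6v0d1 it was 0.10. Within groups it ran from -0.76 for Atp6v0a1 to 0.76 for Atp6v0e. With the group means left in, it was -0.00 for Atp6v0a1 and 0.39 for Atp6v0e over the 12 arrays. On that same measure, over the 10 arrays without the 2 far ones, it was -0.25 and 0.61. These correlations describe 12 arrays that share groups and preparation.

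The genes whose levels followed Atp6v0d2 most closely over the 12 arrays were sought among 1067 named genes with a standard deviation of at least 0.5. Such a correlation takes in the difference between the cell kinds that led to the choice of genes. The search therefore favours genes with that difference, and the list is a description. The closest was Cyba, the p22phox subunit of the phagocyte NADPH oxidase, with a Pearson correlation of 0.93. It averaged 8.66 ± 0.25 in MHC-II-positive melanophages, 8.80 ± 0.29 in MHC-II-negative melanophages, 8.04 ± 0.36 in MHC-II-positive macrophages and 7.59 ± 0.36 in MHC-II-negative macrophages (SD, n = 3 each). Its melanophage arrays, from 8.43 to 9.08, all lay above its macrophage arrays, from 7.31 to 8.28. Within groups, after each group mean was removed, the correlation with Atp6v0d2 was 0.72.

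Ctsk, the cysteine protease of osteoclast resorption, followed at 0.90, with 0.80 within groups. Gpnmb, a glycoprotein of melanosomes and lysosomes, stood at 0.87 over all arrays but at 0.25 within groups, so its likeness lay mostly between the groups. The lectin receptor Clec4d stood at 0.85 (0.86 within groups) and Mpc1, a subunit of the mitochondrial pyruvate carrier, at 0.85 (0.81 within groups). Akip1 stood at 0.83 (0.71 within groups) and Naa20, a subunit of an N-terminal acetyltransferase, at 0.81 (0.07 within groups). Gstm1, a glutathione transferase, stood at 0.80 over all arrays and -0.05 within groups. Cks1b, a cofactor of cyclin-dependent kinases, stood at 0.76 (0.88 within groups), and Klra3, a receptor known from natural killer cells, at 0.75 (0.46 within groups). V0 genes were left out of this search. No V1 gene reached the standard deviation of 0.5, so none could be among the 10.

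**Figure D3:**
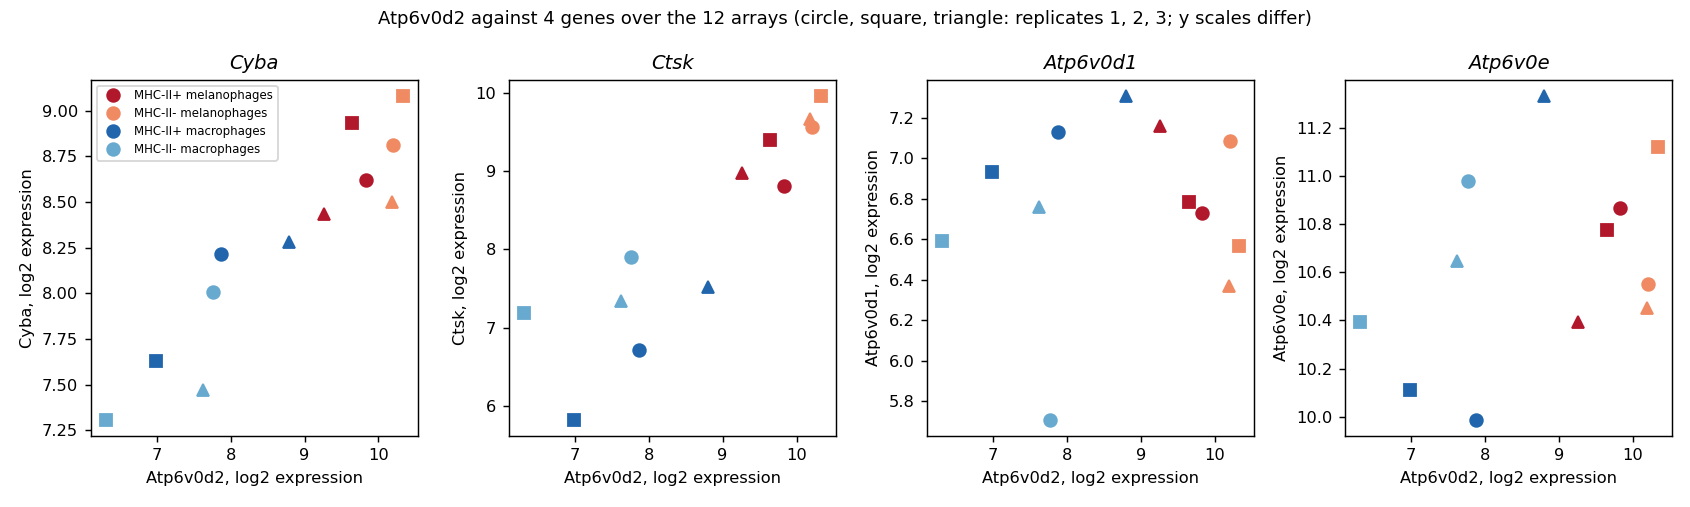
Log2 levels of Cyba, Ctsk, Atp6v0d1 and Atp6v0e (y axes, each with its own scale) against Atp6v0d2 (x axes) over the 12 arrays, coloured by group. Cyba and Ctsk climb with Atp6v0d2 (Pearson correlation 0.93 and 0.90), while Atp6v0d1 and Atp6v0e follow it less closely over the 12 arrays (0.10 and 0.39).

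The V1 sector completes the pump, so its 13 measured genes were set beside the V0 genes. Between melanophages and macrophages, averaged over MHC-II class, 0 of 13 passed in either direction. The differences lay above 0 for 12 of the 13 with a median of 0.09, while 54.8% of all genes lay above 0 with a median of 0.011. Among the 13, Atp6v1b1, Atp6v1c2, Atp6v1e2 and Atp6v1g3 had group means between 2.61 and 3.17, in the range of dim probe sets. At this signal their signs may not measure the transcripts. The only V1 gene below 0, Atp6v1b1 at -0.02, was among them. Atp6v1g1, a subunit of the peripheral stalk, was at 9.81 in melanophages and 9.36 in macrophages, a difference of 0.46 ± 0.10 (SE). Atp6v1g2, its isoform known from neurons, stood at 0.33 ± 0.15 and Atp6v1f, a subunit of the rotor, at 0.31 ± 0.22. The catalytic subunit gene Atp6v1a stood at 0.13 ± 0.06, and the gene of the B subunit known from most cells, Atp6v1b2, at 0.04 ± 0.16. No V1 difference reached the size of that of Atp6v0d2.

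The 16 measured genes of the list of accessory subunits and assembly factors had a median difference of 0.01, with 9 above 0, 7 below 0 and 0 called. This list also held Atp6v0a4, a further gene of the a subunit. Its group means were 2.55 to 2.67, in the range of dim probe sets. Vma21, a chaperone of V0 assembly, stood at 0.34 ± 0.16 (SE) and Atp6ap1, an accessory subunit of V0, at -0.21 ± 0.14. Among 17 lysosomal ion channels and transporters, 9 lay above 0 and 8 below, with a median of 0.05 and 0 called. Mcoln2, a cation channel of the mucolipin family, was at 8.15 in melanophages and 7.76 in macrophages, a difference of 0.39 ± 0.11. Clcn5, a chloride-proton exchanger of endosomes, was at 5.33 in melanophages and 5.81 in macrophages, a difference of -0.48 ± 0.19. The largest positive difference of that list, Mcoln3 at 0.43 ± 0.09, was of a gene at 2.88 in melanophages and 2.44 in macrophages, in the range of dim probe sets.

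The list of the Ragulator and Rag GTPases, which tie the pump to mTORC1 signalling, also held Flcn, Fnip1 and Fnip2. It had a median of 0.09 over 12 genes, with 7 above 0, 5 below 0 and 0 called. Lamtor1, which anchors the complex to the lysosome, stood at 0.42 ± 0.18 (SE). Of the 4 transcription factors of the MiT/TFE family 0 were called: Tfec stood at 0.35 ± 0.21, Mitf at 0.24 ± 0.18, Tfeb at -0.06 ± 0.10 and Tfe3 at -0.42 ± 0.16. Of 16 osteoclast-type genes Ctsk (2.32 ± 0.25) and Gpnmb (2.11 ± 0.32) passed in the direction of higher in melanophages and 0 lower, with a list median of 0.04. Of all genes 0.0552% passed as higher. With every probe set tested, 0 genes passed as higher, so neither Ctsk nor Gpnmb did. The same held when MHC-II-negative melanophage replicate 1 or MHC-II-negative macrophage replicate 2 was left out. Acp5, tartrate-resistant acid phosphatase, stood at -0.36 ± 0.21 and Mmp9 at -0.35 ± 0.09. Members and lists were chosen with the differences between these cell kinds known, and these counts are descriptions.

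In the comparisons of MHC-II class, 0 genes of any of these 6 lists passed (limma). Averaged over cell kind, an unadjusted p under 0.05 was reached by 0 of 13 V1 genes, 0 of 16 accessory genes, 2 of 17 ion channels and transporters, 1 of 12 Ragulator and Rag genes, 0 of 4 MiT/TFE genes and 2 of 16 osteoclast-type genes, against 9.23% of all genes. Medians of the lists lay between -0.08 and 0.05, and that of all genes was -0.024. The smallest adjusted p among the V1 genes was that of Atp6v1b2 (0.24 ± 0.16 SE, adjusted p = 0.687). Among the other lists it was 0.649 for Ccdc115, an assembly factor, 0.486 for Mcoln3, 0.391 for Rragd, 0.913 for Tfeb and 0.369 for Ctsk. Ctsk averaged 7.87 in MHC-II-positive and 8.60 in MHC-II-negative cells, a difference of -0.73 ± 0.25 (SE).

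**Figure D4:**
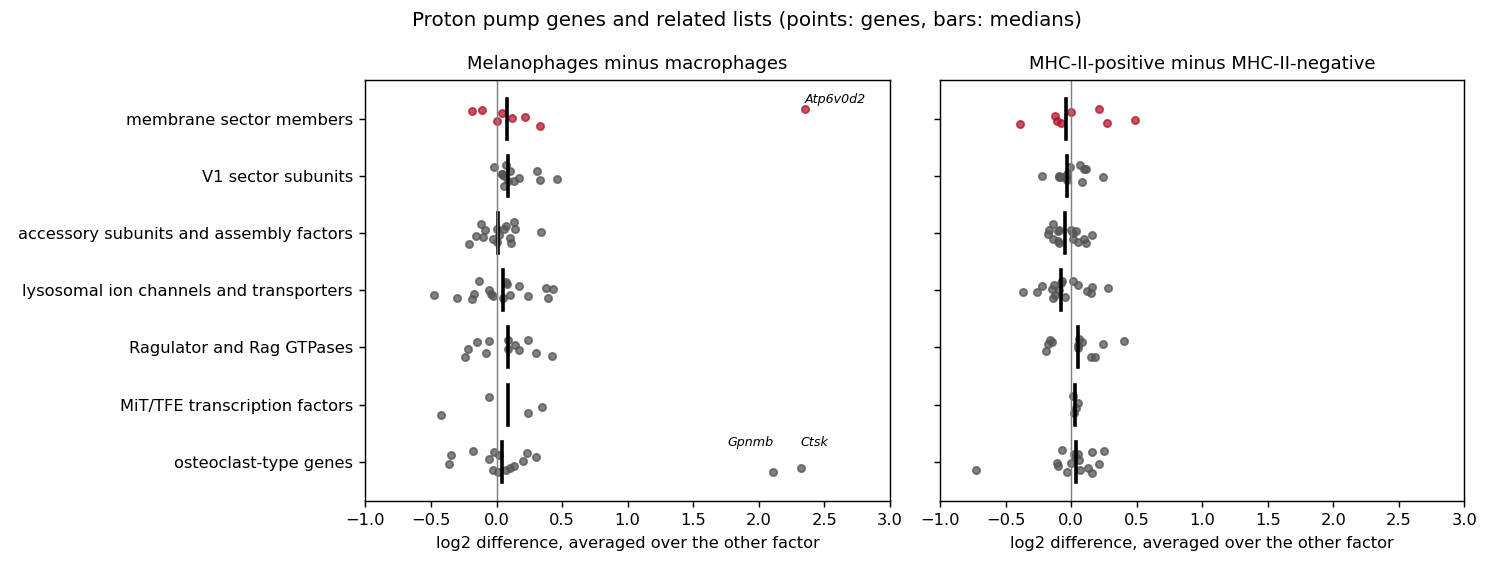
Log2 differences (x axes) of the V0 genes and the 6 related lists (rows), melanophages minus macrophages on the left and MHC-II-positive minus MHC-II-negative on the right, each averaged over the other factor. Points are genes with vertical jitter and bars are list medians. On the left Atp6v0d2, Ctsk and Gpnmb stand at 2.35, 2.32 and 2.11, and all other points lie between -0.48 and 0.46.

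Markers of other cells moved with cell kind or MHC-II class as follows. The summed linear level of the 8 osteoclast markers was 543 to 768 in MHC-II-positive melanophages, against 161 to 285 in MHC-II-positive macrophages. In the MHC-II-negative class it was 835 to 1085 in melanophages, against 236 to 329 in macrophages. Between the cell kinds this sum moved with Atp6v0d2. Between the MHC-II classes of macrophages the sums overlapped, and Ctsk averaged 6.68 in MHC-II-positive and 7.47 in MHC-II-negative cells. There the means of Atp6v0d2 ran the other way, at 7.89 in MHC-II-positive and 7.23 in MHC-II-negative cells. Neither difference passed the test (limma). From array to array within the groups, Ctsk and Atp6v0d2 correlated at 0.80. Of the 8 markers, 5 (Calcr, Ocstamp, Dcstamp, Oscar and Itgb3) lay within 1 unit of the array median on all arrays. Among them were the fusion proteins and the calcitonin receptor known from osteoclasts. So near the median, these probe sets may not measure the transcripts. Ctsk, described above, is on this list, with an averaged difference of 2.32 ± 0.25 (SE), while Acp5 (-0.36 ± 0.21 SE) and Nfatc1 (0.02 ± 0.13 SE) were the other 2.

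The 8 dendritic cell markers summed to 130 to 223 in MHC-II-positive melanophages, against 230 to 370 in MHC-II-positive macrophages, and to 72 to 85 in MHC-II-negative melanophages, against 87 to 97 in MHC-II-negative macrophages. Cd24a, whose protein the sort excluded, averaged 4.38 ± 0.29 in MHC-II-positive melanophages, against 5.98 ± 0.75 in MHC-II-positive macrophages, and 3.16 ± 0.73 in MHC-II-negative melanophages, against 4.13 ± 0.64 in MHC-II-negative macrophages (SD, n = 3 each). Of the 8, Zbtb46, Epcam and Xcr1 lay within 1 unit of the array median on all arrays. The 5 measured T cell and innate lymphoid markers summed to 222 to 302 in MHC-II-negative melanophages, against 116 to 141 in MHC-II-negative macrophages, and overlapped in the MHC-II-positive class, at 477 to 535 in melanophages and 402 to 903 in macrophages. Il7r carried this difference in the MHC-II-negative class, at 7.85 ± 0.28 in melanophages and 5.98 ± 0.61 in macrophages (SD, n = 3 each). Cd2, at 3.15 ± 0.41 in melanophages and 4.18 ± 0.15 in macrophages, and Thy1, at 3.51 ± 0.28 in melanophages and 4.43 ± 0.92 in macrophages, ran the other way. Cd3e and Cd3g lay within 1 unit of the median on all arrays. The 6 neutrophil markers summed to 130 to 191 in MHC-II-positive melanophages, against 73 to 102 in MHC-II-positive macrophages, and overlapped in the MHC-II-negative class, at 78 to 144 in melanophages and 66 to 84 in macrophages. Averaged over MHC-II class, S100a8 differed by 1.19 ± 0.32 (SE) and S100a9 by -0.73 ± 0.19 (SE), melanophages minus macrophages, and the other 4 lay within 1 unit of the median on all arrays. Ccr2, whose protein the sort also excluded, moved with MHC-II class: it averaged 6.75 ± 0.39 in MHC-II-positive and 3.40 ± 0.31 in MHC-II-negative melanophages, and 7.11 ± 0.53 in MHC-II-positive and 3.99 ± 0.27 in MHC-II-negative macrophages (SD, n = 3 each). The 3 measured monocyte markers, with Plac8 and Vcan within 1 unit of the median, summed to 101 to 159 in MHC-II-positive and 22 to 25 in MHC-II-negative melanophages, and to 115 to 219 in MHC-II-positive and 26 to 31 in MHC-II-negative macrophages. The 6 mast cell markers summed to 67 to 108 in MHC-II-positive macrophages, against 160 to 230 in the MHC-II-negative group. Cpa3 averaged 3.67 and 5.54 there, and Mcpt4 5.61 and 6.78, with the other 4 within 1 unit of the median. In melanophages the sums overlapped, at 72 to 214 (MHC-II-positive) and 75 to 359 (MHC-II-negative). The fibroblast sums overlapped between the 4 groups, with Dcn at 6.31 ± 1.11 (SD) in MHC-II-negative macrophages and 5.26 to 5.37 elsewhere. The part of these cells in the V0 values was not tested.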

How the data were processed

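RNA of sorted skin cells was amplified and hybridised to 12 arrays in 4 groups of 3. The deposited log2 values were made by the authors with RMA (oligo, both named in the submitters' processing notes); the genome build is not given in the sources used here. Of 35556 probe sets, 21789 are annotated with 1 gene symbol, 1621 with several and 12146 with none. Only the first kind was named, with 1 probe set per gene (the highest mean), which left 19938 genes. Symbols were checked through Entrez identifiers for 21698 of these probe sets. No 2 arrays held identical values over the 66 pairs.

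All 12 arrays entered 1 limma fit (limma 3.58.1, R 4.3.3; lmFit and eBayes, 8 residual degrees of freedom, 2-sided) with a mean per group. Benjamini-Hochberg adjustment ran over all genes of a comparison, with a threshold of 0.05. Of 7 comparisons, 4 were tested (MHC-II class averaged, within melanophages, within macrophages, and the interaction) and 3 between cell kinds are given for the V0 genes without a p, since they led to the choice of genes. Summed levels are sums of linear values. Precision is limited by having 3 arrays a group.

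The V0 genes, the lists and the alternatives were chosen with earlier results of these data known. Named genes were all V0 genes, up to 4 of each list (those called, otherwise the smallest adjusted p for MHC-II class, and the largest differences between cell kinds), and the 10 genes nearest to Atp6v0d2 by Pearson correlation. Alternatives covered normalization, dim genes, probe set choice, the variance model, array weights, the groups in the fit, left-out arrays and a block by runs of library numbers in the titles. No protein sequences were used here.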

Additional observations from a re-analysis of the deposited data

How the results depend on the processing

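In the tested comparisons of MHC-II class, 784 values of V0 genes under the alternatives gave 0 calls; 38 changed sign, all of them uncalled. The difference of Atp6v0d2 between melanophages and macrophages kept its sign throughout, from 2.12 to 2.71 averaged, 1.24 to 2.15 in the MHC-II-positive class and 2.55 to 3.28 in the MHC-II-negative class. The averaged count of 1 called V0 gene became 0 in 9 of 12 fits that leave out 1 array (any melanophage array, MHC-II-positive macrophage replicate 1, or MHC-II-negative macrophage replicate 2 or 3; range 0 to 1) and 0 with every probe set tested, and was 1 in the 11 other alternatives. In the MHC-II-negative class it was 1 instead of 0 with a variance trend and 1 without both far arrays. The causes were not tested.

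Counts over all genes moved more. For MHC-II class within macrophages, 68 became 27 with only the groups compared in the fit, and 71 higher and 19 lower were called after a second quantile normalization, against 62 and 6. Leaving out 1 array gave 96 to 158 genes for MHC-II class averaged, 19 to 46 within melanophages, 47 to 92 within macrophages and 0 to 3 for the interaction. For the cell kinds averaged, 24 became 38 with genes above the table median, 15 with median centring, 1 with every probe set, 45 with array weights and 117 without both far arrays, and 1 to 30 with 1 array left out. In the MHC-II-positive class, 3 became 0 with quantile normalization or only the groups compared, 5 with every probe set, 8 with a variance trend, 6 with array weights, 34 without both far arrays and 0 to 20 with 1 array left out. In the MHC-II-negative class, 1 became 2 with every probe set, 5 with a variance trend, 12 without both far arrays, 0 with only the groups compared and 0 to 8 with 1 array left out.

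The labels give no replicate numbers, but the library numbers in the titles form 3 runs with 1 array of each group. A fit with these runs as a replicate block, chosen after seeing the data, gave 0 called V0 genes in each comparison of MHC-II class, left the count of 1 between the cell kinds, and moved 1 count over all genes by more than 1.5 times, from 1 to 6 between the cell kinds in the MHC-II-negative class. The runs were not taken as pairs: deviations from the group means correlated at a median of -0.03 over 18 pairs of arrays of a run (-0.25 to 0.27) and 0.06 over 36 pairs of different runs, and 2 of 12 arrays were closest to their own run. Signal limits Atp6v0e2, which lay near the dim probe sets.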
